A study of Mus musculus with 4 samples.

Results

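The 10 genes described here encode cyclic nucleotide phosphodiesterases, and they were taken by name from a deposited table of 28193 genes measured by fosTRAP-seq in mouse hippocampus. The genes were Pde1a, Pde1b, Pde2a, Pde4a, Pde4b, Pde4d, Pde7a, Pde7b, Pde8b and Pde10a, and each name matched 1 row of the table. fosTRAP-seq reads the RNA on ribosomes of neurons in which Fos was active at the time of tagging, because these neurons carry an HA tag on the ribosomal protein Rpl22 and an HA antibody pulls their ribosomes out of the tissue homogenate. Male C57BL/6J mice of 3 to 5 months carried an AAV8 with tamoxifen-inducible Cre under the c-Fos promoter and an AAV9 with Cre-dependent HA-mRpl22 under the EF1a promoter. All mice, controls included, received 4-hydroxytamoxifen and were sleep deprived for 5 h on day 0, so both groups carried a tag set during sleep loss. On day 7 a further 5 h of sleep deprivation by gentle handling from lights on was given to the SD mice, the NSD mice were left undisturbed, and tissue was taken at ZT 5, in hours after lights on. Each library pooled the CA1 of 5 mice, which gave 2 NSD and 2 SD libraries. For every group mean and standard deviation below, n = 2 pools (SD of a value is written s.d.). The sample labels give dorsal hippocampus as the tissue and cFos-Cre:Ribotag as the genotype, whereas the study's methods describe microdissected CA1 of virus-injected mice, and the methods are followed here.

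Phosphodiesterases end cyclic nucleotide signals by hydrolysing cAMP or cGMP, and each enzyme sits at its own place in the neuron, so that the pools of both messengers are kept local. The families differ in what they cleave and in what controls them. PDE1, PDE2 and PDE10 cleave both messengers, PDE1 being switched on by calcium and calmodulin and PDE2 by cGMP itself, while PDE4, PDE7 and PDE8 cleave cAMP, and PDE4 is the target of the inhibitor rolipram. In hippocampal neurons cAMP made by adenylyl cyclases activates protein kinase A and Epac, and PDE4 enzymes are known for limiting this signal in long-term potentiation and memory. Earlier work on sleep loss reported raised PDE4 activity and PDE4A protein in the hippocampus, which is why the level of each isoform under SD and NSD is of interest. The values here are ribosome-bound RNA per gene in tagged neurons, so they measure neither activity nor protein and do not separate splice variants.

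The library totals were 153511705 to 195910235 estimated counts. The lowest count of a phosphodiesterase of the set was 1253 (Pde7b in NSD 2) and the highest 70183 (Pde2a in SD 2), so counting error alone was 0.419% to 2.83% of the lowest count of each gene. Markers of CA1 pyramidal neurons (Wfs1, Fibcd1, Pou3f1 and Mpped1) summed to 1080.5 to 1296 CPM (TMM-scaled counts relative to the same total in each library) and 5 markers of excitatory neurons to 5189 to 5529 CPM. Markers of other cells were detected too, as 6 GABAergic markers summed to 719 to 810 CPM and 5 oligodendrocyte markers to 1403 to 1694 CPM. Endothelial markers summed to 35.2 CPM in NSD 1, 49.3 CPM in NSD 2, 29.7 CPM in SD 1 and 19.96 CPM in SD 2, and 4 of these 5 genes, as well as 3 of 4 mural markers, were lower in both SD libraries, beside 27.5% of all genes. Choroid plexus markers ranged from 4.51 CPM in SD 2 to 72.2 CPM in NSD 2. Of the CA1 markers, Wfs1 and Fibcd1 were lower in both SD libraries and Mpped1 was higher. Of 57 marker genes 55 were tested, and edgeR called 0, with 11 at an unadjusted p below 0.05 (19.1% of all genes and 2273 of 15551 protein-coding genes). The block fit called 10 and DESeq2 7, where 2.99% of all genes were called higher in each, and 8.47% and 5.79% lower. The part of these other cells in the values below was not tested.

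To learn whether sleep deprivation shifted the phosphodiesterase RNA on the ribosomes, SD was compared with NSD over the 22338 genes whose count was above 5 in each of the 4 libraries. None of the 10 phosphodiesterases was called (edgeR quasi-likelihood test, Benjamini-Hochberg adjusted p below 0.05 and fold above 1.2), beside 3.1% of all genes, 0.77% higher in SD and 2.33% lower. For protein-coding genes these shares were 0.952% and 0.54%, and at such shares 0 calls among 10 genes says little. DESeq2 also called 0 of the 10, beside 2.99% of all genes higher and 5.79% lower (608 and 278 of 15551 protein-coding genes). So did edgeR with the batch number of the labels as a block, beside 2.99% higher and 8.47% lower (587 and 512 of 15551 protein-coding genes). At an unadjusted p below 0.05, edgeR picked 1 of the 10, Pde4a, beside 19.1% of all genes and 2273 of 15551 protein-coding genes. The median log2 fold change of the 10 was 0.01, against -0.02 over all genes tested and 0.02 over the protein-coding genes, with 5 genes above 0 and 5 below. The 95% interval of the fold change included 0 on the log2 scale for 9 of the 10 genes. For 6 of them the whole interval lay within 1.2-fold either way, so that for these genes a larger shift between the group means lies outside the interval. As each library is a bulk pull-down, fewer cells of a type and less RNA per cell cannot be told apart in any of these values.

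**Figure D1:**
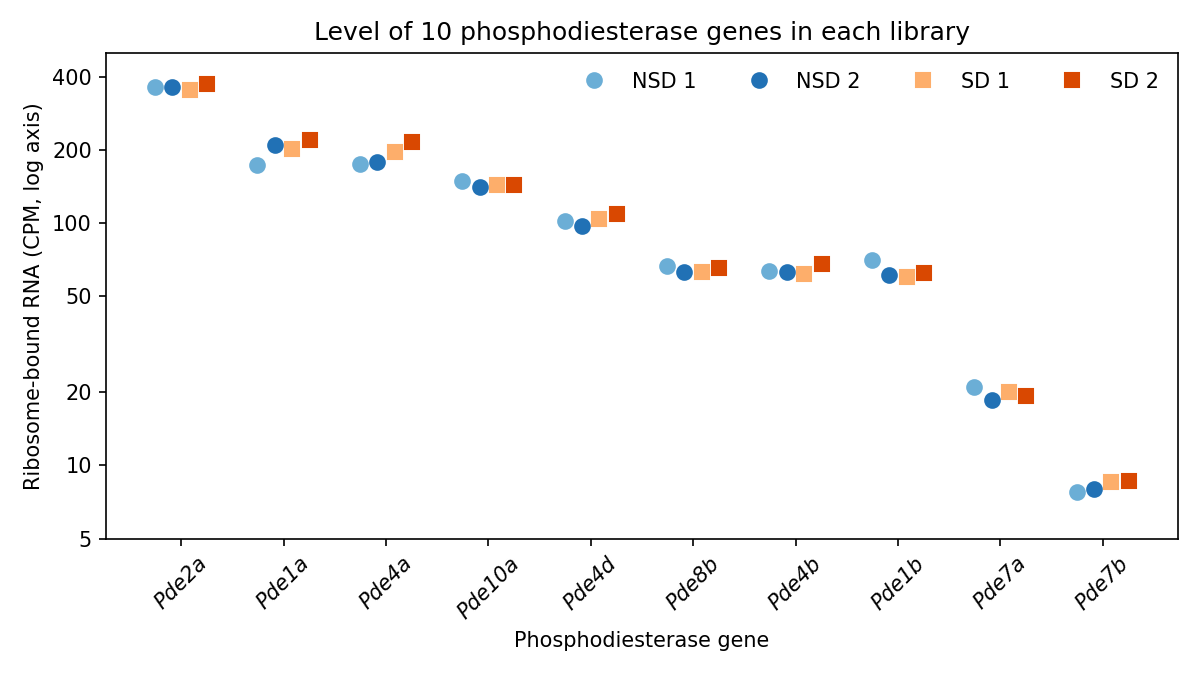
Level of the 10 phosphodiesterase genes on a log axis of CPM, with circles for the 2 NSD libraries and squares for the 2 SD libraries. Pde2a sits highest at 353 to 371 CPM and Pde7b lowest at 7.81 to 8.67 CPM, and only for Pde4a, Pde4d and Pde7b do both squares lie above both circles.

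Among the enzymes that cleave both messengers, Pde2a was the most abundant and its group means lay closest together. Pde2a (ENSMUSG00000110195, chr7:101070898-101162034, GRCm39, plus strand) encodes the cGMP-stimulated PDE2A, through which cGMP lowers cAMP. Its level was 363 CPM in NSD 1, 363 CPM in NSD 2, 353 CPM in SD 1 and 371 CPM in SD 2, and the NSD values fell between the SD values. The log2 fold change was -0.00 ± 0.08 (s.e., edgeR adjusted p = 0.988), with a 95% interval of -0.19 to 0.18. A protein-coding locus on the same strand, Gm45837 (chr7:101060093-101162026), shares 3955 exon bases with Pde2a, 52.6% of the merged exons of Pde2a, and its count reached 11.8% of that of Pde2a, so reads could be split between them. With the counts of both loci added, the level was 395, 406, 392 and 412 CPM in NSD 1, NSD 2, SD 1 and SD 2, and the log2 fold change was 0.01 (edgeR adjusted p = 0.983).

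Pde1a and Pde1b encode calmodulin-dependent enzymes, which tie cyclic nucleotide breakdown to calcium entry, and neither differed between the groups beyond the spread of the pools. Pde1a (ENSMUSG00000059173, chr2:79664797-79959802, minus strand) was at 173 CPM in NSD 1, 209 CPM in NSD 2, 202 CPM in SD 1 and 218 CPM in SD 2. NSD 1 stood below the other 3 libraries, and the gap of 0.27 on the log2 scale between the 2 NSD pools was the widest between pools of a group among the 10 genes. The fold change of Pde1a was 0.14 ± 0.10 on the log2 scale (edgeR adjusted p = 0.530), and it moved to 0.04 without NSD 1 and to 0.28 without NSD 2. Pde1b (ENSMUSG00000022489, chr15:103411461-103438479, plus strand) was at 70.2 CPM in NSD 1, 60.7 CPM in NSD 2, 59.5 CPM in SD 1 and 61.9 CPM in SD 2. Here NSD 1 was the highest library, the reverse of its place for Pde1a, and the fold change, -0.11 ± 0.08 on the log2 scale (edgeR adjusted p = 0.553), became 0.03 without NSD 1. The ratio of Pde1a to Pde1b CPM was accordingly 2.46 in NSD 1 and 3.40 to 3.52 in the other 3 libraries. In the annotation used here exons of Ppp1r1a, a gene on the opposite strand, cover 2453 exon bases of Pde1b. The kit was a stranded one, but whether the counting used the strand is not given in the sources used here.

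Pde10a encodes an enzyme best known from striatal medium spiny neurons, and its level was nearly flat over the libraries. Pde10a (ENSMUSG00000023868, chr17:8744204-9205480, plus strand) was at 149 CPM in NSD 1, 141 CPM in NSD 2, 143 CPM in SD 1 and 143 CPM in SD 2. Both SD values lay between the NSD values, and the log2 fold change was -0.02 ± 0.07 (edgeR adjusted p = 0.905). Markers of striatal neurons (Drd1, Drd2, Adora2a and Rgs9) summed to 16.5 to 18.3 CPM in the same libraries, each of them at or below 8.70 CPM.

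The PDE4 genes encode the rolipram-sensitive enzymes that cleave cAMP, which differ in their N-terminal anchors and share a catalytic domain, so that it matters whether reads can tell them apart. Over the coding sequence of a representative transcript of each gene, Pde4a, Pde4b and Pde4d were 68.4% to 69.5% identical in pairs, and the longest identical run was 32 bases. No window of 100 bases was shared between any pair of these genes over all annotated transcripts, whereas the reads were longer than this. The most similar stretch of 120 coding bases is given here in the 5' to 3' direction, because it is where reads would be hardest to assign. It lies within chr9:21106067-21109920, chr4:102427988-102448059 and chr13:110040136-110070433 (GRCm39, plus strand, introns removed) in Pde4a, Pde4b and Pde4d, and capitals mark the 25 positions at which the genes are not all alike.
Pde4a: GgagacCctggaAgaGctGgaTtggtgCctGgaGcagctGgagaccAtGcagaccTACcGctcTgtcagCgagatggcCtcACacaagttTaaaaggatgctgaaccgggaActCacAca
Pde4b: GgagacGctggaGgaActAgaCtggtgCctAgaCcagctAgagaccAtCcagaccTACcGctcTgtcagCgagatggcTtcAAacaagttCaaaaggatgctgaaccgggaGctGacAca
Pde4d: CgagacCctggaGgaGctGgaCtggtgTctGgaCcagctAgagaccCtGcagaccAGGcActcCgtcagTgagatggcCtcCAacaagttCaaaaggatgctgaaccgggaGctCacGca
The differing positions are spread along the stretch, and the other 95 positions are identical in all 3 genes.

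In the edgeR fit to all 4 libraries Pde4a had the largest fold change of the 10 genes and was the only member with an interval that excluded 0. Without NSD 2 the log2 fold change of Pde1a was larger, at 0.28 against 0.23 for Pde4a. Pde4a (ENSMUSG00000032177, chr9:21077010-21124544, plus strand) was at 174 CPM in NSD 1, 179 CPM in NSD 2, 196 CPM in SD 1 and 215 CPM in SD 2. Both SD libraries were above both NSD libraries, as in 22% of all genes tested and 26.5% of the protein-coding genes. The group means were 177 ± 2.96 CPM in NSD and 205 ± 13.5 CPM in SD (s.d.), a fold of 1.16 with a 95% interval of 1.03 to 1.31. On the log2 scale the change was 0.22 ± 0.08 (s.e.), and the edgeR p adjusted over all genes was 0.173, so Pde4a did not pass the test. With the batch as a block the adjusted p was 0.0403 in edgeR and in DESeq2 it was 0.0326, but the fold stayed under 1.2 in both. Without a fold threshold Pde4a would be called higher by either of these fits, beside 4.95% of all genes with the block and 3.94% with DESeq2. The change was 0.16 within batch 1 and 0.26 within batch 2, and among the refits with 1 library left out it was smallest without SD 2, at 0.17 (edgeR adjusted p = 0.629).

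**Figure D2:**
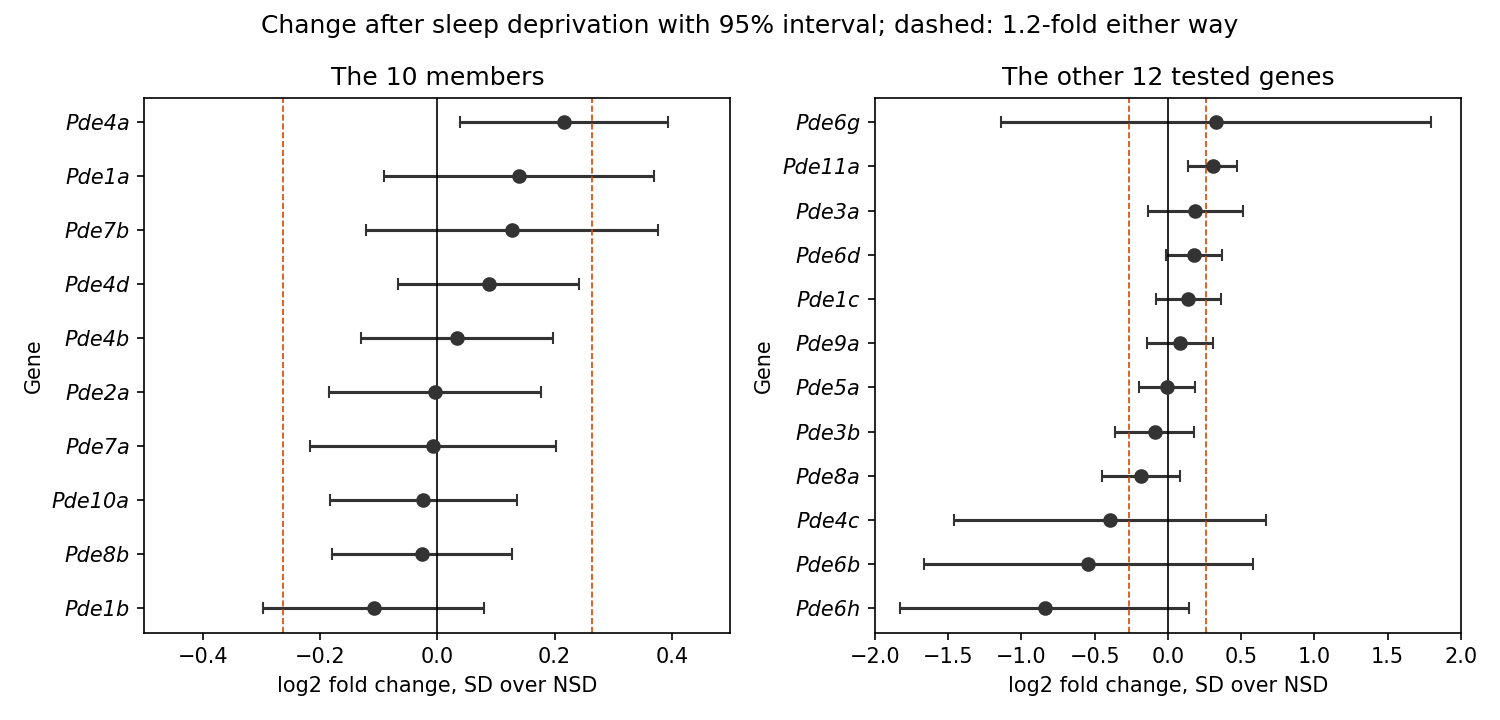
Log2 fold change of SD over NSD (horizontal axis) with its 95% interval for the 10 phosphodiesterase genes (left) and for 12 other tested genes of the family (right, on a wider axis), with dashed lines at 1.2-fold either way. In the left panel the interval of Pde4a, 0.04 to 0.39, lies wholly above 0, and in the right panel that of Pde11a does, at 0.14 to 0.47.

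Pde4b and Pde4d, the closest relatives of Pde4a, showed smaller differences. Pde4d (ENSMUSG00000021699, chr13:108586482-110089995, plus strand), whose enzyme binds beta-arrestins and A-kinase anchoring proteins, was at 102 CPM in NSD 1, 97.3 CPM in NSD 2, 103 CPM in SD 1 and 108 CPM in SD 2. The SD libraries were above the NSD libraries by a narrow margin, and the log2 fold change was 0.09 ± 0.07 (edgeR adjusted p = 0.563), with 0.15 without NSD 1 and 0.06 without NSD 2. Pde4b (ENSMUSG00000028525, chr4:101944740-102464456, plus strand), known as a binding partner of DISC1, was at 63.5 CPM in NSD 1, 62.6 CPM in NSD 2, 61.4 CPM in SD 1 and 67.6 CPM in SD 2. Its groups overlapped, and the log2 fold change was 0.03 ± 0.07 (edgeR adjusted p = 0.868). Of the summed CPM per kilobase of exon of these 3 genes, Pde4a held 62.3% and 63.6% in NSD 1 and NSD 2 and 65.1% and 65.6% in SD 1 and SD 2. With Ensembl canonical transcript lengths, in which Pde4d is much shorter, these shares were 41.2%, 42.7%, 43.9% and 44.7%, so the size of the share depends on the length used while both SD libraries stayed above both NSD libraries. The ratio of Pde4a to Pde4b CPM was 2.75 in NSD 1, 2.86 in NSD 2, 3.19 in SD 1 and 3.18 in SD 2, with no overlap. An exact permutation test of 2 against 2 libraries cannot give a p below 0.333, so these shares and ratios are descriptions.

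The remaining cAMP-specific genes were Pde7a, Pde7b and Pde8b, whose enzymes are not blocked by rolipram. Pde7b (ENSMUSG00000019990, chr10:20273750-20600824, minus strand) was at 7.81 CPM in NSD 1, 7.98 CPM in NSD 2, 8.57 CPM in SD 1 and 8.67 CPM in SD 2. Both SD pools were higher and the pools of each group lay close together, but the log2 fold change was 0.13 ± 0.11 (edgeR adjusted p = 0.611). Pde7a (ENSMUSG00000069094, chr3:19277272-19365486, minus strand) was at 21.2 CPM in NSD 1, 18.5 CPM in NSD 2, 20.2 CPM in SD 1 and 19.3 CPM in SD 2. The SD values fell inside the NSD range, and the change was -0.01 ± 0.09 on the log2 scale (edgeR adjusted p = 0.978). Pde8b (ENSMUSG00000021684, chr13:95160962-95386844, minus strand), which has a high affinity for cAMP, was at 66.6 CPM in NSD 1, 62.9 CPM in NSD 2, 62.4 CPM in SD 1 and 64.8 CPM in SD 2. The groups overlapped here too, and the log2 fold change was -0.03 ± 0.07 (edgeR adjusted p = 0.891).

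Across the 10 genes, 3 were higher in both SD libraries, 0 were lower in both, and 7 overlapped, where 22% of all genes were higher in both and 27.5% lower in both (26.5% and 20% of the protein-coding genes). The labels put replicate 1 of both groups in batch 1 and replicate 2 in batch 2, so that SD can be set against NSD within each batch. In batch 1 the log2 ratio was above 0 for 4 of the 10 genes, beside 48.9% of all genes, and in batch 2 it was above 0 for all 10, beside 45.4% of all genes. The batch 2 ratios ran from 0.02 (Pde10a) to 0.26 (Pde4a). The 4 genes above 0 in both batches were Pde1a, Pde4a, Pde4d and Pde7b, where 30.8% of all genes were above 0 in both and 36.5% below 0 in both. The size of the fold changes had a median of 0.06 on the log2 scale, and the distance between pools of a group a median of 0.07 in both NSD and SD. The first sets group means against each other and the second single pools, so these are not like measures.

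**Figure D3:**
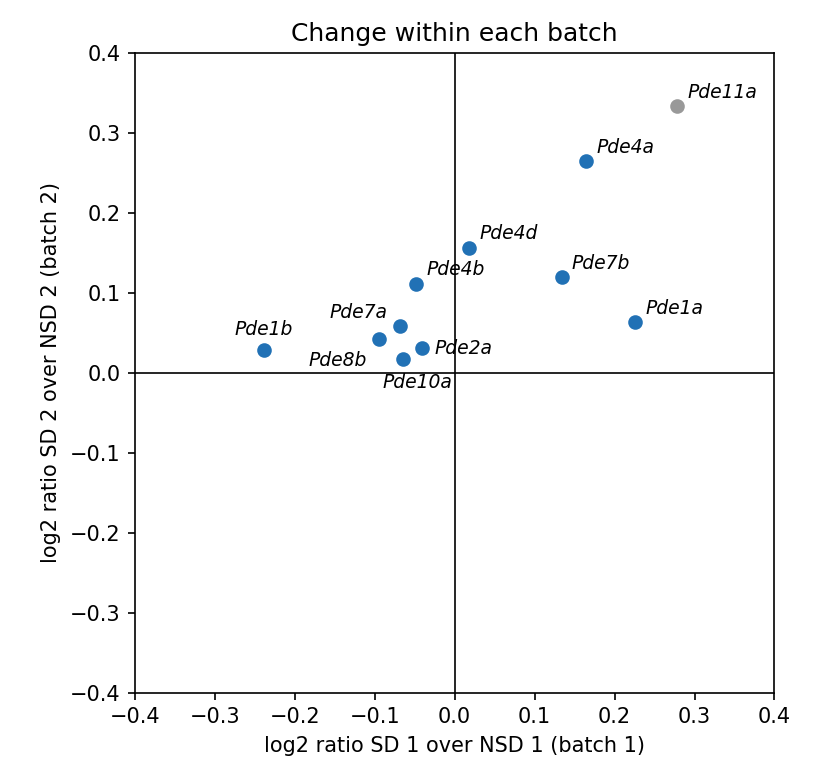
Log2 ratio of SD 1 over NSD 1 (horizontal axis, batch 1) against that of SD 2 over NSD 2 (vertical axis, batch 2), with the 10 phosphodiesterase genes in blue and Pde11a in grey. All points lie above 0 on the vertical axis, 6 of the 10 lie left of 0, and Pde4a lies in the upper right quadrant at 0.16 and 0.26.

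To compare levels between genes, each CPM was divided by the length of the merged exons in kilobases. Pde2a came first at 48.3 ± 0.989 CPM per kilobase (mean ± s.d. over the 4 libraries). Pde1a followed at 26.7 ± 2.61 and Pde4a at 22.4 ± 2.15 CPM per kilobase. The ranges of Pde1a and Pde4a overlapped, although Pde1a was the higher in all 4 libraries. Then came Pde10a at 10.98, Pde1b at 9.11, Pde8b at 7.35, Pde4d at 7.08, Pde4b at 5.39, Pde7a at 1.96 and Pde7b at 0.651 CPM per kilobase. Of these neighbours in the order, only Pde8b and Pde4d had overlapping ranges, Pde8b being higher in 3 of 4 libraries. The place of Pde4d depends on the length used, because its merged exons span 14508 bases and its Ensembl canonical transcript 2455 bases. With canonical transcript lengths Pde4d moved to place 3 at 41.8 CPM per kilobase, whereas Pde2a stayed first and Pde7b last under each of the 3 lengths tried.

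The 10 genes accounted for most of the phosphodiesterase RNA in every library. They summed to 1191, 1201, 1208 and 1277 CPM in NSD 1, NSD 2, SD 1 and SD 2, and to 88.2% to 89.2% of the summed CPM per kilobase of 24 phosphodiesterase genes. On the mean of the 4 libraries Pde2a alone held 30.6% of this sum, Pde1a 16.9% and Pde4a 14.2%. The share of Pde4a was 13.3% in NSD 1, 13.5% in NSD 2, 14.6% in SD 1 and 15.3% in SD 2, whereas that of Pde2a was 31.5% and 31.2% in NSD and 29.9% and 30.0% in SD. Genes of families that cleave both messengers made up 63.3% of the sum and those of cAMP-specific families 30.0%. Genes of cGMP-specific families, the PDE6 subunits Pde6g and Pde6h included, made up 2.84%. Pde6d, which encodes a chaperone of prenylated proteins, was put in no class but stayed in the sum, at 3.84%. With Ensembl canonical transcript lengths the first 2 parts were 56.0% and 37.8%, so this split depends on the length used. With merged exons the cAMP-specific part was 30.1% and 29.1% in NSD 1 and NSD 2 and 30.3% and 30.8% in SD 1 and SD 2. It was thus higher in both SD libraries by a margin smaller than the gap between the NSD libraries.

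**Figure D4:**
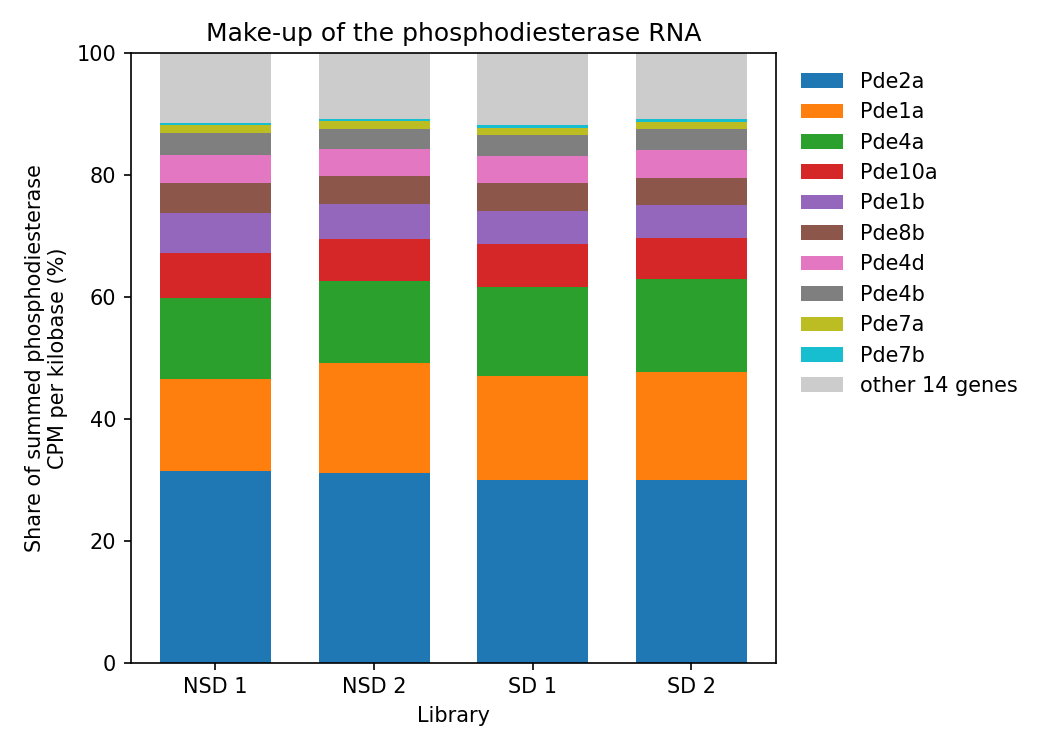
Share of each of the 10 genes, and of 14 other phosphodiesterase genes together (light grey), in the summed phosphodiesterase CPM per kilobase of merged exons (vertical axis, percent) for each library. Pde2a, Pde1a and Pde4a fill the lower part of every bar, and the segment of Pde4a widens from 13.3% in NSD 1 to 15.3% in SD 2.

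Several of the 10 genes are long and hold other annotated loci, whose reads could be split with them. In the deposited coordinates 9 loci overlapped 5 of the genes, and 6 of these were processed pseudogenes. Apart from Gm45837 in Pde2a, none of these 9 had more than 5.58% of the count of its host, which was reached by Rps3a3, a processed pseudogene on the same strand as Pde4d. In the annotation used here, but not in the deposited coordinates, Mtfr1 also shares 311 exon bases with Pde7a on the opposite strand, beside the overlap of Ppp1r1a with Pde1b, and reads split with these genes were not tested. The 3 tested genes whose pattern over the 4 libraries was most like that of Pde4a were Usp27x, Esrrg and Spopl, with root mean square differences of 0.0039, 0.0069 and 0.0079 in centred log2 CPM, out of 15096 genes compared.

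The other genes of the family were also not called in edgeR, but Pde11a passed in both other fits. Of 14 such genes 12 had enough counts, with Pde6a and Pde6c left untested. In edgeR 1 of the 12 had an unadjusted p below 0.05, beside 19.1% of all genes and 2273 of 15551 protein-coding genes. Pde11a (ENSMUSG00000075270, chr2:75819485-76169118, minus strand), a hippocampus-enriched enzyme that cleaves both messengers, was at 25.6 CPM in NSD 1, 24.9 CPM in NSD 2, 31.1 CPM in SD 1 and 31.3 CPM in SD 2. The groups were well apart, with a log2 fold change of 0.31 ± 0.07 that missed the threshold in edgeR (adjusted p = 0.0614). Pde11a rose in the edgeR fit with the batch as a block (adjusted p = 0.00807) and in DESeq2 (adjusted p = 0.00565), in which 2.99% and 2.99% of all genes were called higher. Both batches gave a positive ratio, 0.28 and 0.33. The difference between the changes of Pde11a and Pde4a was not tested.

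None of the remaining 11 family members reached an unadjusted p below 0.05 in edgeR. Pde1c, the third calmodulin-dependent gene, had a log2 fold change of 0.14 ± 0.10. The cGMP-inhibited Pde3a and Pde3b stood at 0.19 ± 0.14 and -0.09 ± 0.12. The cGMP-specific Pde5a and Pde9a stood at -0.00 ± 0.08 and 0.08 ± 0.10, Pde8a at -0.18 ± 0.12 and Pde6d at 0.18 ± 0.08 (edgeR adjusted p = 0.296). Pde4c and the photoreceptor genes Pde6b, Pde6g and Pde6h were below 1 CPM in every library, with wide intervals that all included 0 (-1.83 to 1.80 over the 4 genes). Pde6h had the largest change in size of the family, at 0.416, 0.388, 0.210 and 0.238 CPM in NSD 1, NSD 2, SD 1 and SD 2. Both SD libraries were lower, and the change was -0.84 ± 0.43 on the log2 scale (edgeR adjusted p = 0.345). Pde4c, the least abundant PDE4 gene, was at 0.567, 0.560, 0.592 and 0.264 CPM in NSD 1, NSD 2, SD 1 and SD 2.

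The proteins that bind phosphodiesterases, make their substrates, read them or export them were examined next, in lists of the pathway. In edgeR 0 genes of the 4 lists were called, beside 0.77% of all genes called higher and 2.33% lower. Of 12 partners that bind, anchor or regulate PDE4 or PDE1, 3 had an unadjusted p below 0.05 (Akap9 and Arrb1 higher in SD, Arrb2 lower). Beside them stood 19.1% of all genes and 2273 of 15551 protein-coding genes. The median log2 fold change of the partners was 0.06. Arrb2, a beta-arrestin that brings PDE4D to activated receptors, had the smallest p. It was at 25.0 CPM in NSD 1, 26.4 CPM in NSD 2, 22.1 CPM in SD 1 and 20.8 CPM in SD 2, a change of -0.26 ± 0.08 on the log2 scale (edgeR adjusted p = 0.114). The block and DESeq2 fits each called 1 partner higher, Akap9, an anchor of protein kinase A and PDE4D at the centrosome and Golgi, beside 2.99% of all genes in each fit.

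Among 14 cyclases, which make cAMP or cGMP, 4 had an unadjusted p below 0.05, again beside 19.1% of all genes and 2273 of 15551 protein-coding genes. The median log2 fold change of the cyclases was -0.02. Adcy5 was at 287 CPM in NSD 1, 279 CPM in NSD 2, 339 CPM in SD 1 and 344 CPM in SD 2, a change of 0.27 ± 0.08 on the log2 scale (edgeR adjusted p = 0.0936). Adcy5 and Adcy1, the calcium-stimulated cyclase of cortex and hippocampus, were called higher in the block fit (adjusted p = 0.0151 and 0.0184) and in DESeq2, beside 2.99% of all genes in each. Among the effectors, the proteins that bind cAMP or cGMP or act on protein kinase A, 18 of 19 were tested, 15 had a log2 fold change above 0 and the median was 0.09. Over all genes tested 10533 of 22338 were above 0, and 8434 of 15551 protein-coding genes. Of the 18 effectors 5 had an unadjusted p below 0.05, each higher in SD, beside 6.86% of all genes and 1378 of 15551 protein-coding genes. Prkar2a, a regulatory subunit of protein kinase A, was at 68.0 and 71.7 CPM in NSD and at 82.3 and 87.0 CPM in SD, a change of 0.28 ± 0.07 on the log2 scale (edgeR adjusted p = 0.0665). Prkar2a was called higher with the block (adjusted p = 0.00415), and DESeq2 called Prkar2a and Pkia, an inhibitor of protein kinase A.

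Both exporters of cyclic nucleotides had a log2 fold change below 0, as did 11805 of 22338 genes and 7117 of 15551 protein-coding genes. Of the exporters 1, Abcc5, had an unadjusted p below 0.05. Such a p with a lower level in SD was found in 12.2% of all genes and 895 of 15551 protein-coding genes. Abcc5 was at 113 CPM in NSD 1, 108 CPM in NSD 2, 95.5 CPM in SD 1 and 94.1 CPM in SD 2, a change of -0.22 ± 0.07 on the log2 scale (edgeR adjusted p = 0.104). Neither was called by any of the 3 fits.

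**Figure D5:**
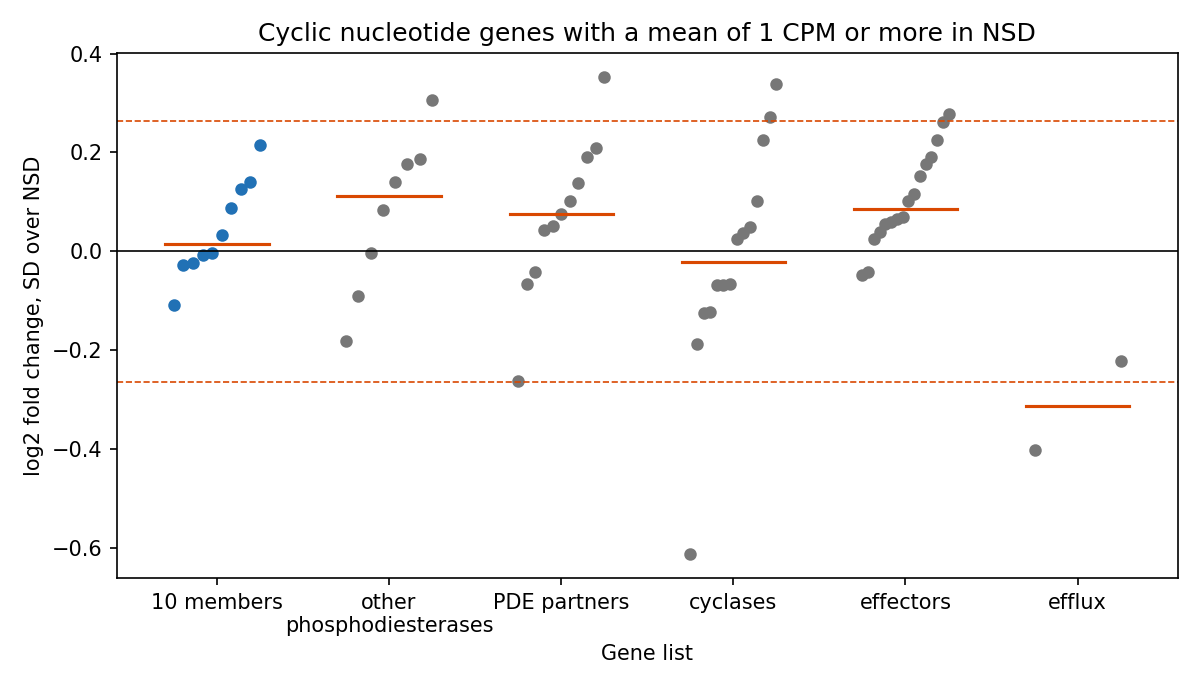
Log2 fold change of SD over NSD (vertical axis) for the tested genes with a mean of 1 CPM or more in NSD, 1 point per gene, grouped by list, with a bar at each list's median and dashed lines at 1.2-fold either way. The 10 phosphodiesterases (blue) stay within the dashed lines, between -0.11 and 0.22, while the highest points are Akap9 (0.35), Adcy1 (0.34) and Pde11a (0.31).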

How the data were processed

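The fosTRAP-seq libraries were 2 NSD and 2 SD pools, grouped by the treatment given in the labels. After trimming and alignment with STAR, the authors deposited estimated counts per gene (expected counts) from the expectation-maximization model of Partek, on genome build mm39 per the labels, without normalization. Of the 28193 genes, 55.5% had a value that was not whole, so counts were rounded. The 34 rows without a gene name (0.0105% of counts) were not removed. The genes whose count was above 5 in each library were entered into edgeR 4.0.16, run in R 4.3.3 (TMM scaling, quasi-likelihood test, condition as the only term, Benjamini-Hochberg adjustment over 22338 genes), with a call at adjusted p under 0.05 and fold over 1.2, the thresholds of the study. For the log2 ratios within a batch a prior count of 2 was added. Batch numbers in the labels pair the libraries, and same-numbered libraries deviated together (correlation 0.178 across genes). The fit with this replicate block, DESeq2 1.42.0, other scalings and filters and each library left out were the alternatives. Exon lengths, overlaps and coding sequences came from GENCODE M39 on GRCm39, and PDE4 coding sequences were aligned with MAFFT 7.526. Named genes were all phosphodiesterases, and from each pathway list the called genes or, with none called, that with the smallest p. For the gene of smallest p among the 10, the 3 genes most like it were named. Other genes named because they passed in an alternative or had a low unadjusted p were chosen after their values were seen. The 10 genes and the lists were chosen with earlier results of these data known, and some list genes are not reported here and were left out of the counts and sums of their lists. The labels do not say whether the pools came from separate experiments beyond their batch numbers.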

Additional observations from a re-analysis of the deposited data

How the results depend on the processing

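Of 101 fold changes of the 10 genes under the alternatives, 0 were called, 82 kept their sign and 19 changed it, none of these larger than 0.12 on the log2 scale. Pde2a became 0.0184 and Pde7a 0.0139 with DESeq2 and likewise, at 0.0184 and 0.0139, with DESeq2's size factors in edgeR. Without a count filter Pde2a became 0.0240, Pde7a 0.0193, Pde8b 0.0012 and Pde10a 0.0035, and with filterByExpr Pde2a became 0.0024. With the counts of Gm45837 added, chosen after seeing the data, Pde2a became 0.0056. Leaving out 1 library at a time, the lone library of a group being assumed to vary like the others, the range was -0.21 to 0.030 for Pde1b, -0.022 to 0.034 for Pde2a, -0.020 to 0.10 for Pde4b, -0.10 to 0.12 for Pde7a, -0.066 to 0.045 for Pde8b, -0.064 to 0.047 for Pde10a 0.17 to 0.28 for Pde4a, 0.04 to 0.28 for Pde1a, 0.06 to 0.15 for Pde4d and 0.137 to 0.143 for Pde7b. Pairing the libraries by batch (replicate block) called 1 other phosphodiesterase, 1 partner, 2 cyclases and 1 effector higher, and DESeq2 called 1, 1, 2 and 2, where edgeR without the block called 0. The block called 668 genes higher and 1891 lower over the whole table and DESeq2 669 and 1294, against 172 and 520. DESeq2's size factors gave 229 and 457, no count filter 50 and 80, protein-coding genes only 51 and 39 and filterByExpr 1 and 0. Under the last 3 settings 0 calls among 10 genes says least, and it says little with the 172 and 520 of the main fit too. Leaving out a library gave 144 to 321 higher and 87 to 1953 lower. Without a fold threshold, added after seeing the data, the block and DESeq2 each called 1 of the 10 higher (Pde4a), and edgeR without the block called 0. Leaving out a library gave 0 to 1 partners higher (Akap9, without SD 2) and 0 to 1 cyclases lower (Npr1, without SD 1). The share of the 10 genes in the summed level was 88.8%, and 89.4% with canonical transcript lengths, which were added after seeing the data. The cause of these shifts was not tested. Counting error reached 2.83% of the lowest count, for Pde7b, whose pools lay no further apart than that.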
